A study of Mus musculus with 9 samples.

Results

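The genes examined here encode amino acid transporters and their close relatives, taken as every row of the deposited gene counts whose symbol belongs to solute carrier family 1, 3, 6, 7, 36, 38 or 43. The rule found 61 rows (60 symbols, since Slc6a16 has 2 rows) among 33212. Poly-A RNA had been sequenced from αTC1 cells, an established glucagon-producing line from a mouse alpha cell tumour made with a viral oncogene, grown in low-glucose medium. All groups were treated for 7 days, with the solvent DMSO alone (5 libraries) or with 4 µM EPZ011989 (4 libraries), an inhibitor of EZH2, the enzyme of Polycomb repressive complex PRC2 that methylates lysine 27 of histone H3. The libraries are labelled biological replicates of a single line, without saying whether cultures were separate, and p-values therefore describe the spread among these libraries, part of which may be technical.

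Transporters of these families move amino acids across the plasma membrane and the lysosomal membrane, some driven by sodium or protons and others by exchanging one amino acid for another. Alpha cells secrete glucagon in response to amino acids, and glucagon in turn drives amino acid breakdown in the liver. In mice, raised blood amino acids make alpha cells divide, a response in which the glutamine transporter gene Slc38a5 takes part. The rule is broader than its name. It also takes in carriers of monoamines, creatine and taurine (several Slc6 genes), a nucleobase carrier (Slc43a3) and the heavy chains Slc3a1 and Slc3a2, which carry light chains of the Slc7 family to the membrane.

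Total counts per library were 60274140 to 74651782, and levels are given as CPM, counts scaled to the library total with TMM factors (a scaling by the bulk of genes), as mean ± SD over 5 DMSO or 4 EPZ011989 libraries. A gene is called here when its Benjamini-Hochberg adjusted p in the edgeR quasi-likelihood test over 14754 genes was under 0.05. The first principal component separated the groups. The second (10.9% of the variance) set EPZ011989 replicate 2 against replicate 4, and so did a trend with gene length: across 11946 genes, the deviation of replicate 2 from the mean of all libraries correlated with exon length at r = 0.33 and that of replicate 4 at r = -0.24. The alpha cell markers Gcg, Irx1, Irx2, Ttr, Pcsk2 and Chga were all measured, with Gcg at 19279.9 ± 804 CPM in DMSO, while the beta cell genes Ins1 and Pdx1 had no count in any library.

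With EPZ011989, 8 well expressed transporter genes fell, among them the neutral amino acid carriers Slc1a4, Slc1a5, Slc7a5, Slc7a8 and Slc38a1. The creatine carrier Slc6a8 and the lysosomal Slc36a1 and Slc38a9 rose, and so did 8 carriers with few or no counts in DMSO. Of the 61 rows, 6 had no count in any library, 13 more were too low to test and 42 were tested. Among the tested rows 11 were called higher and 8 lower, where 16.2% of all tested genes were called higher and 7.96% lower. Of these 42, 10 did not pass the filter on low counts through the DMSO libraries, and 6 of the 11 higher genes are among them, so that these had to be higher to be tested. The 28 members whose mean over all libraries was 5 CPM or more all passed through the DMSO libraries as well. In that set 8 (28.6%) were lower and 3 (10.7%) higher, beside 10.8% and 11.7% of the 10310 tested genes of that level, and the median log2 fold change was -0.09 beside -0.02. The 8 falls were between -0.90 and -0.34 on the log2 scale. Every EPZ011989 library lay below every DMSO library for 7 of the 28 and above for 3, beside 11.8% and 10.8% of tested genes of that level. Over all 42 tested members these were 7 and 11, beside 8.77% and 16.1% of all tested genes. For all genes the split of calls was 2388 higher and 1174 lower, or 67.0% higher, which became 77.9% with upper-quartile factors. The split among members, 11 and 8, was the same with upper-quartile factors. Without EPZ011989 replicate 2 there were 12 members lower in place of 8, and all genes called lower numbered 2377 in place of 1174. Without EPZ011989 replicate 3, 781 genes were called lower. With EPZ011989 replicates 2 and 4 both left out, 8 members were higher and 7 lower.

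**Figure D1:**
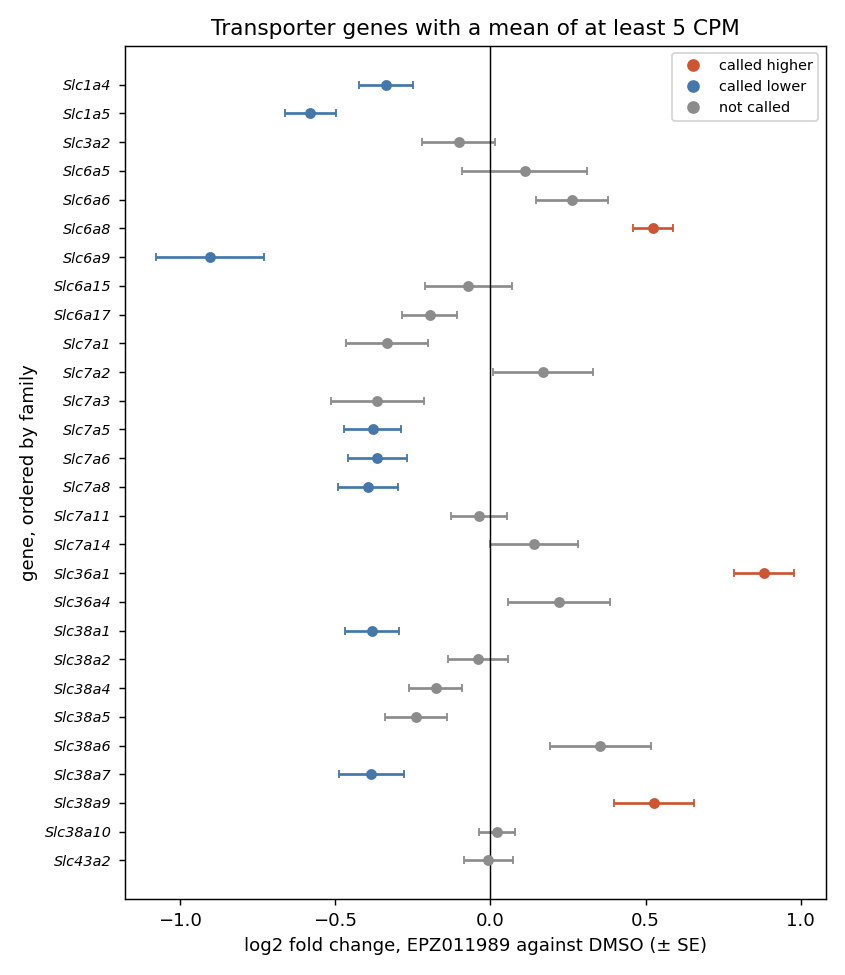
Log2 fold change (EPZ011989 against DMSO, ± SE) of the 28 transporter genes at a mean level of 5 CPM or more, ordered by family, blue for genes called lower, red for genes called higher and grey for genes not called. Slc6a9 lies furthest to the left at -0.90 and Slc36a1 furthest to the right at 0.88, and the other 7 called falls lie between -0.58 and -0.34.

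By family, the Slc7 genes had 3 calls among 12 tested, all lower. The Slc1 family had 1 gene higher and 2 lower of 4 tested, and the Slc38 family 2 higher and 2 lower of 9. The Slc6 family had 4 higher and 1 lower of 10 tested, out of 19 rows. Slc36 had 2 higher of 3 tested. In Slc3 and in Slc43, 1 of 2 tested genes was higher.

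Levels of different genes are compared per kilobase (kb) of merged exon, in DMSO. Slc38a5, a sodium-coupled carrier of glutamine, serine and histidine, was the highest at 454 ± 15.7 CPM per kb (SD, n = 5). Slc38a4, which takes up neutral amino acids with sodium, came next at 112 ± 7.30. Slc3a2, the heavy chain of the large exchangers, was at 84.6 ± 6.48 and its light chain Slc7a5 at 77.1 ± 2.73, a pair whose SD intervals overlap. Slc7a2, a carrier of arginine and lysine, was the fifth at 48.6 ± 5.17. With EPZ011989 the means of these 5 kept this order, at 385 ± 59.6, 98.8 ± 10.6, 78.9 ± 14.1, 59.3 ± 8.03 and 54.7 ± 15.2 CPM per kb (SD, n = 4). The SD intervals of Slc38a4 and Slc3a2, of Slc3a2 and Slc7a5 and of Slc7a5 and Slc7a2 then overlapped, so only Slc38a5 stood apart. Below these 5 genes, Slc6a5 (30.5 ± 4.02), Slc38a2 (25.8 ± 1.70) and Slc1a5 (25.5 ± 1.89) had overlapping SD intervals in DMSO. Merged exons can be longer than the transcript that a cell makes, which lowers a value per kb.

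**Figure D2:**
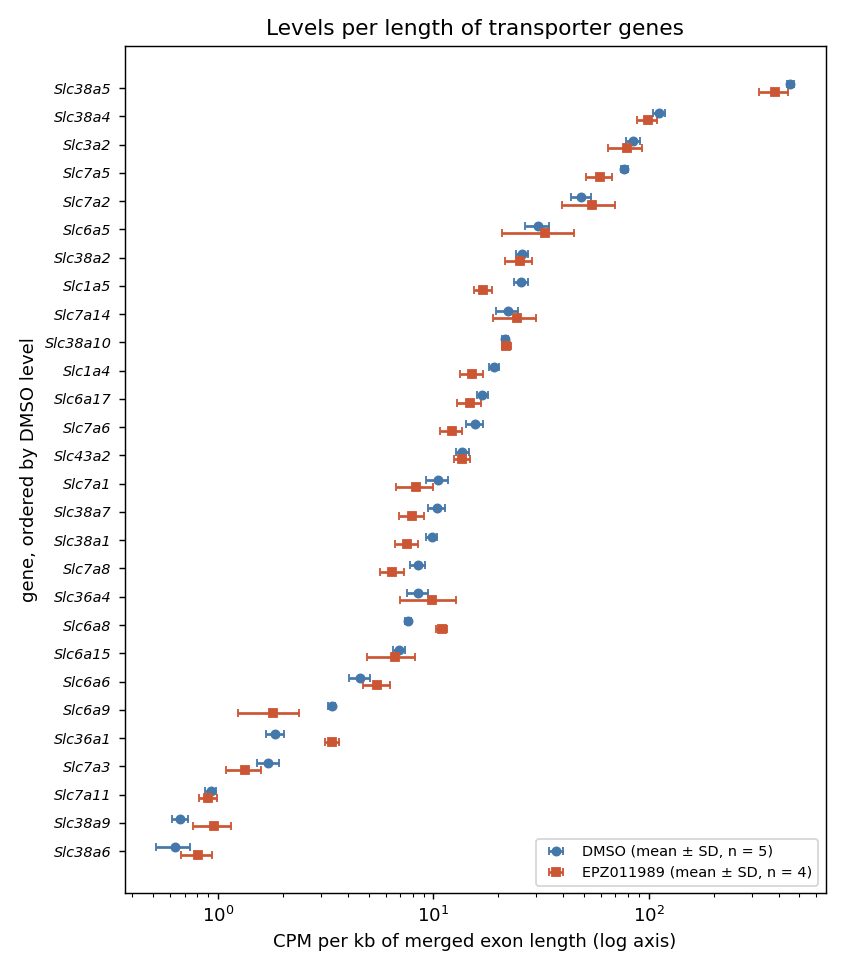
Mean level per kb of merged exon (log axis) ± SD for the 28 genes at a mean level of 5 CPM or more, circles for DMSO and squares for EPZ011989, ordered by the DMSO level. Slc38a5 stands above the others in both groups, and Slc6a8 and Slc36a1 are the clearest cases in which EPZ011989 is the higher.

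The summed level of all members ran from 4348 to 4770 CPM in the DMSO libraries and from 3858 to 4480 CPM in the EPZ011989 libraries. The ranges overlapped through EPZ011989 replicate 2, at 4480 CPM. EPZ011989 replicates 1, 3 and 4, at 4321, 4084 and 3858 CPM, lay below every DMSO library.

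Neutral amino acid exchangers of the Slc1 family fell. Slc1a5, which exchanges glutamine for other neutral amino acids, was at 101, 106, 103, 101 and 120.0 CPM in DMSO replicates 1 to 5 and at 71.3, 62.4, 72.2 and 78.7 CPM in EPZ011989 replicates 1 to 4. The groups were separate, and the DMSO library at the top stood apart from the rest. The log2 fold change was -0.58 ± 0.08 (SE, adjusted p = 5.02e-04, edgeR). Slc1a4, an exchanger of alanine, serine, cysteine and threonine, was at 73.2, 69.6, 76.7, 79.9 and 75.5 CPM in DMSO and at 60.6, 53.7, 69.2 and 54.1 CPM with EPZ011989. Here the groups nearly met, since EPZ011989 replicate 3 came just under the lowest DMSO library. Its log2 fold change was -0.34 ± 0.09 (SE, adjusted p = 0.0156, edgeR), or -0.21 without EPZ011989 replicates 2 and 4, where the call was lost (adjusted p = 0.0616).

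The large neutral amino acid exchangers are dimers of the heavy chain Slc3a2 and a light chain, and 3 light chain genes fell without a call on the heavy chain. Slc7a5, which brings in leucine and other large neutral amino acids in exchange for glutamine, was at 283, 283, 272, 298 and 292 CPM in DMSO and at 237, 176, 242 and 224 CPM with EPZ011989. No library of one group reached the other, and EPZ011989 replicate 2 was the lowest. The log2 fold change of Slc7a5 was -0.38 ± 0.09 (SE, adjusted p = 0.0109, edgeR). Slc7a8, a light chain of broad neutral specificity, was at 42.4, 41.5, 38.9, 48.2 and 41.01 CPM in DMSO and at 38.3, 30.8, 29.1 and 30.96 CPM with EPZ011989, where replicate 1 came just under the lowest DMSO library (-0.39 ± 0.10 SE on the log2 scale, adjusted p = 0.0127 by edgeR). Slc7a6, which exchanges arginine and lysine for neutral amino acids and sodium, was at 77.8, 69.6, 77.7, 69.3 and 62.4 CPM in DMSO and at 55.00, 64.02, 53.9 and 48.8 CPM with EPZ011989. It is the called fall whose groups overlapped, through DMSO replicate 5 and EPZ011989 replicate 2 (-0.36 ± 0.10 SE on the log2 scale, adjusted p = 0.0172 by edgeR). Without EPZ011989 replicates 2 and 4 the call on Slc7a8 was lost (adjusted p = 0.0518, edgeR). The call on Slc7a6 was lost without EPZ011989 replicate 3 (adjusted p = 0.0538, edgeR).

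Slc3a2 itself was at 276, 311, 274, 307 and 326 CPM in DMSO and at 286, 207, 296 and 323 CPM with EPZ011989. All but EPZ011989 replicate 2, which was below, lay within the DMSO range, and the gene was not called (-0.10 ± 0.12 SE on the log2 scale, adjusted p = 0.602 by edgeR). Slc7a11, the cystine and glutamate exchanger that also pairs with Slc3a2, was not called, at 12.9 ± 0.726 and 12.5 ± 1.16 CPM (adjusted p = 0.834, edgeR). Slc7a7 and Slc7a10, further light chains of Slc3a2, were below 1 CPM in every library and were not called.

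Slc7a11 and Slc1a4 are shown because their promoter windows hold the core of the C/EBP-ATF response element, the sequence through which the transcription factor ATF4 acts when amino acids are short. The letters searched were TGATGNAA on both strands, in RefSeq windows of 300 bases on GRCm38.p6 (250 before and 50 after each gene's start), and 3.97% of all 32851 windows hold them. Windows were found for 42 member symbols, and 3 of these (Slc7a11, Slc1a4 and Slc7a7) have a match. With TGATGCAA alone the same 3 match, beside 0.895% of all windows. The members are counted by symbol and the shares by window. A symbol can have several windows (Slc7a7 has 5, of which 2 match), so the members and the shares are not directly comparable. Capitals mark the matches in the Slc7a11 stretch (chr3:50443634-50443693, minus strand) and the Slc1a4 stretch (chr11:20332704-20332743, minus strand).
Slc7a11: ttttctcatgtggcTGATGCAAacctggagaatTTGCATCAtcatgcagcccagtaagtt
Slc1a4: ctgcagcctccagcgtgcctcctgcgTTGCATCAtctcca
Slc7a11 has a match in each orientation, and its level did not pass the test. Slc1a4 has a single match across its start site, and Slc1a4 fell. A match describes the letters only.

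Of the Slc38 genes of sodium-coupled uptake, Slc38a1 fell, Slc38a3 rose from near 0, and Slc38a2, Slc38a4 and Slc38a5 were not called. Slc38a1, a carrier of glutamine and alanine of the type called system A, was at 184, 159, 172, 169.6 and 162 CPM in DMSO and at 138, 147, 124 and 111 CPM with EPZ011989. Every EPZ011989 library was below every DMSO library (-0.38 ± 0.09 SE on the log2 scale, adjusted p = 0.00877 by edgeR). Its neighbour Slc38a2 (chromosome 15, 96687392 to 96699730, GRCm38), the system A gene that is known to be induced by amino acid shortage, lies 44.5 kb from Slc38a1 (chromosome 15, 96571418 to 96642913). Slc38a2 was at 249, 221, 236, 226 and 209 CPM in DMSO and 231, 253, 226 and 178 CPM with EPZ011989. The groups overlapped, with EPZ011989 replicate 4 below and replicate 2 above the DMSO range, and the log2 fold change of -0.04 ± 0.10 (SE) was not called.

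Slc38a4, next along chromosome 15, was at 521, 469.8, 483, 469 and 435 CPM in DMSO and at 414, 479, 421 and 369 CPM with EPZ011989. EPZ011989 replicate 2 lay inside the DMSO range and the other 3 below it, and Slc38a4 was not called (adjusted p = 0.165) but was without that replicate (a log2 value of -0.25 with adjusted p = 0.0167, edgeR). Slc38a5, the highest member per kb, was at 1032, 1029.8, 961, 1014 and 1055 CPM in DMSO and at 965, 688, 825 and 969 CPM with EPZ011989. EPZ011989 replicates 1 and 4 sat at the lower edge of the DMSO range and replicates 2 and 3 below it, and the gene was not called (-0.24 ± 0.10 SE on the log2 scale, adjusted p = 0.112 by edgeR). After removal of each library's trend with exon length, Slc38a5 passed (a log2 value of -0.24 with adjusted p = 0.0296, edgeR).

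Slc38a3, the other glutamine carrier of system N (the type of Slc38a5), had counts in 1 of 5 DMSO libraries, at 0.177 CPM in replicate 2, and was at 0.649, 0.661, 0.633 and 1.19 CPM with EPZ011989. Every EPZ011989 library was higher (adjusted p = 0.0105, edgeR). Slc38a6 and Slc38a10, whose substrates are less settled, were at 4.90 and 6.26 CPM and at 138 and 139.8 CPM in DMSO and with EPZ011989 and were not called. Slc38a8 and Slc38a11 were too low to test.

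Of the carriers that work at the lysosome, Slc36a1 and Slc38a9 rose and Slc38a7 fell. Slc36a1, which exports small neutral amino acids with protons from lysosomes, was at 11.4, 11.05, 9.83, 10.5 and 8.96 CPM in DMSO and at 20.5, 19.2, 17.1 and 19.5 CPM with EPZ011989. The groups were well apart, at 1.84 times the DMSO mean (0.88 ± 0.10 SE on the log2 scale, adjusted p = 7.20e-05 by edgeR). Slc38a9, the lysosomal arginine sensor that signals to the kinase complex mTORC1, was at 12.3, 10.96, 11.4, 9.74 and 11.3 CPM in DMSO and at 15.6, 20.6, 14.9 and 13.1 CPM with EPZ011989. EPZ011989 replicate 2 was the highest, and all 4 lay above DMSO (0.53 ± 0.13 SE on the log2 scale, adjusted p = 0.0125 by edgeR). The exons of Slc38a9 overlap those of Gm47827 on the other strand, and strand use in counting is not given in the sources used here.

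Slc38a7, which releases glutamine and asparagine from lysosomes, was at 40.7, 40.6, 39.05, 46.1 and 48.5 CPM in DMSO and 33.7, 27.6, 37.96 and 32.7 CPM with EPZ011989. The groups were separate by a narrow margin (-0.38 ± 0.10 SE on the log2 scale, adjusted p = 0.0206 by edgeR). The call was lost with an adjusted p of 0.0567 without DMSO replicate 4 and 0.0532 without DMSO replicate 5. Slc36a4, a high-affinity carrier of proline and tryptophan, was at 55.3 ± 6.21 and 64.5 ± 18.6 CPM and was not called (adjusted p = 0.384, edgeR).

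The cationic amino acid carriers Slc7a1, Slc7a2, Slc7a3 and Slc7a4 and their relative Slc7a14 were not called. Slc7a2 was at 506, 427, 477, 424 and 387 CPM in DMSO and at 494, 691, 452 and 362 CPM with EPZ011989, where replicate 2 was far above and replicate 4 below all DMSO libraries (adjusted p = 0.513, edgeR). Slc7a1, the widely expressed arginine carrier, was at 140.0, 114, 127, 119 and 102 CPM in DMSO and at 97.9, 118, 94.2 and 72.8 CPM with EPZ011989. Its groups overlapped through EPZ011989 replicate 2 (adjusted p = 0.0975), and without that library Slc7a1 passed as lower (a log2 value of -0.46 with adjusted p = 0.0109, edgeR). Slc7a3, a related arginine carrier, was at 6.48 ± 0.758 and 5.03 ± 0.935 CPM (adjusted p = 0.106, edgeR). Slc7a14, a lysosomal relative of these carriers, was at 218 ± 25.9 and 240.4 ± 54.4 CPM (adjusted p = 0.538, edgeR). Slc7a4, of the same branch, stayed below 1 CPM.

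**Figure D3:**
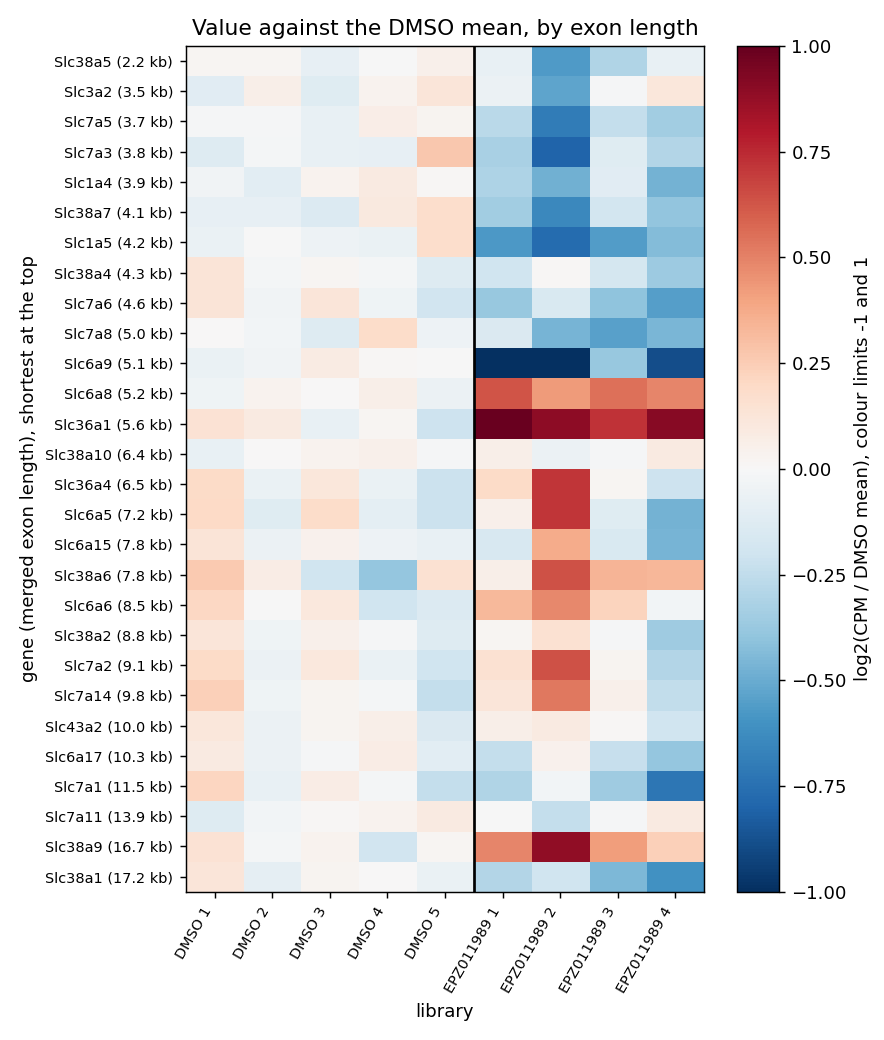
Log2 of each library's CPM over the DMSO mean for the 28 genes at a mean level of 5 CPM or more, genes ordered by merged exon length with the shortest at the top and libraries in columns, red above and blue below the DMSO mean, with colours limited at -1 and 1. In EPZ011989 replicate 2 the short genes at the top are mostly blue and many long genes below are red, while Slc36a1, Slc6a8 and Slc38a9 are red and Slc1a5 and Slc6a9 blue in all 4 EPZ011989 columns.

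The order by length shows how the libraries differ. Of the 28 genes, EPZ011989 replicate 2 was the highest of its group for 15, with a median exon length of 8838 bases, and the lowest for 11, with a median of 4144 bases. The part of this trend in the single calls was tested only by taking it out, which gave 11 members lower and 12 higher in place of 8 and 11 and kept every call made with all 9 libraries.

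Of the glycine carriers, Slc6a9 fell and Slc6a5 was not called. Slc6a9, the glycine carrier of glia and many other cells, was at 16.6, 16.97, 18.4, 17.5 and 17.3 CPM in DMSO and at 7.67, 6.71, 13.3 and 9.39 CPM with EPZ011989. Its DMSO libraries lay close together, the EPZ011989 libraries were spread below them, and replicate 3 was the nearest. The log2 fold change of Slc6a9 was -0.90 ± 0.17 (SE, adjusted p = 0.00306, edgeR). Exons of Slc6a9 overlap those of B4galt2, Ccdc24 and Gm17114 on the other strand, of which B4galt2 was at 9.47 ± 1.45 and 8.62 ± 1.14 CPM and Ccdc24 at 2.67 ± 0.727 and 3.47 ± 1.17 CPM, neither called.

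Slc6a5, the glycine carrier known from inhibitory neurons, had a level of 30.5 ± 4.02 CPM per kb in DMSO beside 3.37 ± 0.133 for Slc6a9. It was at 253, 202, 249, 206 and 190.0 CPM in DMSO and 228, 362, 202 and 159 CPM with EPZ011989. EPZ011989 replicate 2 was the highest of all 9 libraries and replicate 4 the lowest, and the gene was not called (0.11 ± 0.20 SE on the log2 scale, adjusted p = 0.761 by edgeR). A difference between the responses of Slc6a9 and Slc6a5 was not tested.

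Slc6a8, the creatine carrier, was at 38.4, 40.6, 39.7, 41.3 and 38.1 CPM in DMSO and at 61.2, 53.1, 57.98 and 55.7 CPM with EPZ011989. Both groups were tight and separate, at 1.44 times the DMSO mean (0.52 ± 0.07 SE on the log2 scale, adjusted p = 1.91e-04 by edgeR). Slc6a6, the taurine carrier, was at 38.6 ± 4.49 and 46.4 ± 6.71 CPM and was not called (adjusted p = 0.128). Leaving out EPZ011989 replicate 4 made Slc6a6 a called rise (a log2 value of 0.33 with adjusted p = 0.0383, edgeR). The neutral amino acid carriers Slc6a15, of the plasma membrane, and Slc6a17, of synaptic vesicles, were at 53.7 and 51.1 CPM and at 173 and 151 CPM in DMSO and with EPZ011989. Neither was called, and both passed as lower without EPZ011989 replicate 2, while the log2 value of Slc6a15 was 0.02 without replicate 4 (adjusted p without replicate 2 = 0.0376 and 0.00530, edgeR).

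Slc43a2, a carrier of large neutral amino acids that works without exchange, was at 137 ± 9.49 and 136 ± 11.9 CPM and was not called (adjusted p = 0.969, edgeR).

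The remaining 8 rises were of genes at under 0.5 CPM in DMSO. In each of them every EPZ011989 library lay above every DMSO library, in part because 6 of the 8 were tested through their EPZ011989 libraries. Among tested genes with a mean under 5 CPM, 26.6% were called higher and 1.28% lower. Slc6a13, a carrier of GABA and taurine, was at 0.677, 0.427, 0.221, 0.371 and 0.271 CPM in DMSO and at 1.79, 1.32, 1.33 and 2.04 CPM with EPZ011989 (2.03 ± 0.35 SE on the log2 scale, adjusted p = 0.00146 by edgeR). Its lowest EPZ011989 library was well above the highest DMSO library, replicate 1.

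Slc1a1, a carrier of glutamate and cysteine of neurons, kidney and gut, had no count in any DMSO library and was at 1.92, 1.22, 2.47 and 1.71 CPM with EPZ011989. Set against a floor of 12 counts in each DMSO library (3 fragments, if each adds about 4 counts), Slc1a1 was at least 10.4-fold higher (adjusted p = 5.50e-05, edgeR). On the other strand, 4430402I18Rik shares exon sequence with it and was at 0.394 ± 0.188 and 0.961 ± 0.253 CPM, a call (adjusted p = 0.0331) that held in the fits without DMSO replicate 3 or EPZ011989 replicate 2 and in no other fit that left out a library. Slc6a3, the dopamine carrier, was also without a count in DMSO and at 0.517, 0.296, 0.422 and 0.407 CPM with EPZ011989, at least 2.33-fold higher (adjusted p = 8.75e-04, edgeR). Slc1a2, the main glutamate carrier of astrocytes, had no count in DMSO and 0.278, 0.422, 0.106 and 0.379 CPM with EPZ011989, and was too low to be tested.

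**Figure D4:**
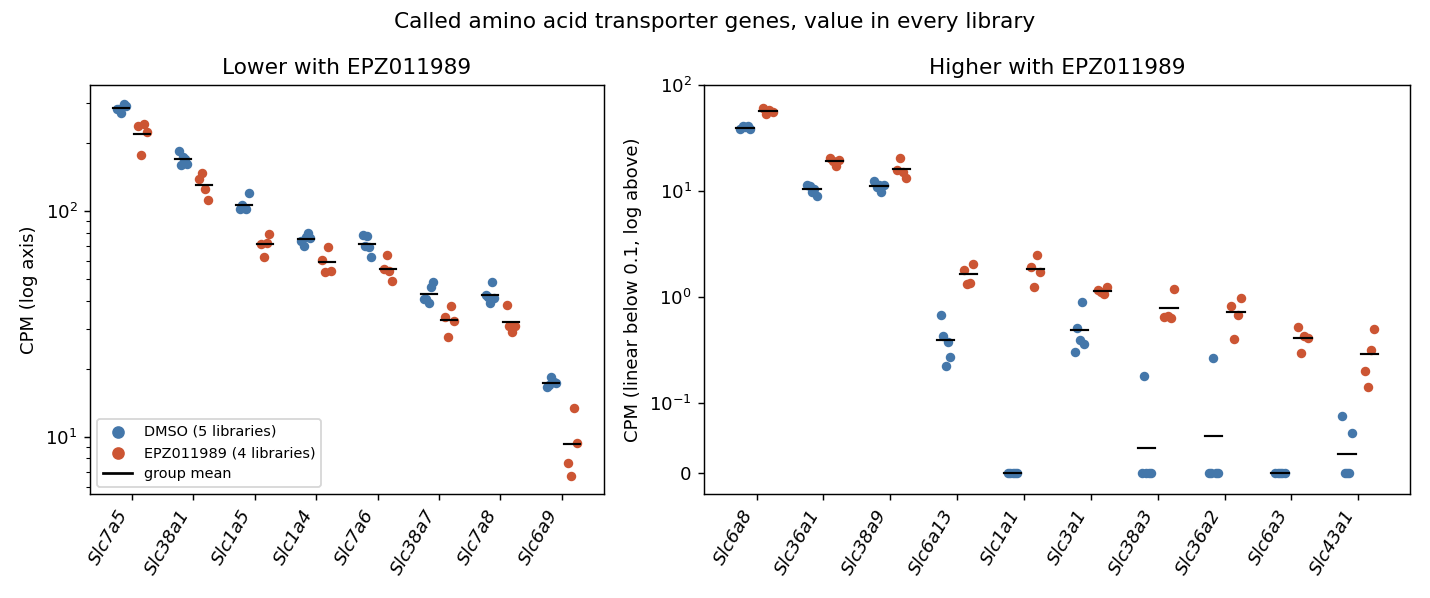
CPM of 18 of the 19 called transporter genes in every library (points, blue for the 5 DMSO and red for the 4 EPZ011989 libraries) with group means as bars, the 8 lower genes on a log axis at the left and 10 higher genes at the right, on an axis that is linear below 0.1 CPM and logarithmic above. Among the higher genes, Slc6a8, Slc36a1 and Slc38a9 are well expressed in DMSO and the other 7 start at under 0.5 CPM.

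Slc3a1, the heavy chain that carries cystine and dibasic amino acid exchangers in kidney and gut, was at 0.298, 0.501, 0.388, 0.895 and 0.357 CPM in DMSO and at 1.17, 1.10, 1.06 and 1.24 CPM with EPZ011989. DMSO replicate 4 came near the EPZ011989 values, and the log2 fold change was 1.23 ± 0.35 (SE, adjusted p = 0.0248, edgeR). Its light chain partner Slc7a9 had no count in any library, and Slc7a13 had a count in 1 library. The exons of Slc3a1 overlap those of Prepl on the other strand, which fell from 109.9 ± 7.68 to 85.8 ± 12.8 CPM (adjusted p = 0.0230, and 0.0654 without EPZ011989 replicate 3, edgeR). The call on Slc3a1 did not hold in 6 fits that left out a library, with adjusted p of 0.0555 without DMSO replicate 1, 0.0606 without DMSO replicate 3, 0.0584 without DMSO replicate 5, 0.0682 without EPZ011989 replicate 1, 0.0519 without EPZ011989 replicate 3 and 0.0591 without EPZ011989 replicate 4.

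Slc36a2, a proton-coupled carrier of glycine and proline, was at 0, 0, 0.263, 0 and 0 CPM in DMSO and at 0.822, 0.394, 0.673 and 0.968 CPM with EPZ011989 (adjusted p = 0.0343, edgeR). A single DMSO library held all of the DMSO counts. The adjusted p was 0.0580 without DMSO replicate 1, 0.0651 without DMSO replicate 2, 0.0610 without DMSO replicate 4, 0.0594 without DMSO replicate 5, 0.0844 without EPZ011989 replicate 1, 0.0757 without EPZ011989 replicate 3 and 0.0675 without EPZ011989 replicate 4. Slc43a1, the relative of Slc43a2 that carries large neutral amino acids in pancreas and liver, was at 0.0812, 0, 0, 0 and 0.0572 CPM in DMSO and at 0.199, 0.141, 0.317 and 0.491 CPM with EPZ011989 (adjusted p = 0.0273, edgeR). These EPZ011989 values are near the floor of 0.158 to 0.169 CPM in those libraries, and the adjusted p was 0.0507 without DMSO replicate 2, 0.0538 without EPZ011989 replicate 1, 0.0704 without EPZ011989 replicate 3 and 0.0808 without EPZ011989 replicate 4.

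Of the other tested genes of this level, Slc1a6 and Slc6a12 passed the filter through the EPZ011989 libraries, at 0.0612 and 0.275 CPM and at 0.0938 and 0.220 CPM, and were not called. Slc1a6, a glutamate carrier of Purkinje cells, was called without DMSO replicate 2, the DMSO library with most of its counts (adjusted p = 0.0176, edgeR). Slc7a15 was at 0.413 and 0.463 CPM and was not called. Rows with no count in any library were Slc1a3, Slc6a14, Slc7a9, Slc7a12, Slc36a3 and 1 of the 2 rows of Slc6a16. The 13 rows that had counts but were not tested, among them the noradrenaline carrier Slc6a2, the serotonin carrier Slc6a4 and the kidney and gut carriers Slc6a18 and Slc6a19, stayed at or below a group mean of 0.296 CPM.

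Some markers of other cell types rose along with the low genes, and others were not called or fell. Of 8 fibroblast markers 5 were tested and 4 rose, and their summed level was 7.31 to 10.01 CPM in DMSO and 30.6 to 41.8 CPM with EPZ011989, most of it from Pdgfra. The 4 that rose were Pdgfra (7.29 ± 0.964 to 27.6 ± 5.88 CPM), Thy1 (0 to 3.28 ± 0.741), Col1a1 (0.128 ± 0.109 to 1.15 ± 0.335) and Pdgfrb (0.047 ± 0.0765 to 0.777 ± 0.326). Col1a2, at 1.27 ± 0.319 and 2.01 ± 0.278 CPM, was not called. Of all tested genes 16.2% were called higher, and 26.6% of those with a mean under 5 CPM. The collagen gene Col3a1 and the matrix genes Dcn and Lum, too low to test, were at 0 in every DMSO library. With EPZ011989 they were at 0.162, 0.0265 and 0.0165 CPM. Of 5 neuron and glia markers, 3 were tested and Rbfox3 rose, from 0.0371 ± 0.0831 to 0.663 ± 0.148 CPM, while the glial genes Gfap and Aqp4 were too low to test. Their summed level, mostly from Map2 and Snap25, which were not called, was 379 to 415 CPM in DMSO and 297 to 419.9 CPM with EPZ011989. Of 3 leukocyte markers 2 were tested and Lyz2 rose, and the sum was 0.983 to 1.81 CPM in DMSO and 4.05 to 5.75 CPM with EPZ011989, with Ptprc at 0 in DMSO and 0.0140 CPM with EPZ011989. Of the beta cell markers Ins2 and Mafa were tested and rose (sum of 4 markers 0.457 to 1.65 CPM in DMSO and 5.42 to 8.06 CPM with EPZ011989). Sst of delta cells and Kdr of endothelium rose as well, Pecam1 of endothelium was not called, and Cela1 of acinar cells fell. Thy1, Col1a1, Pdgfrb, Rbfox3, Lyz2, Sst and Kdr did not pass the filter on low counts through the DMSO libraries. They were tested through their EPZ011989 libraries, so their rises were in part a condition of being tested. In bulk RNA, more cells that express a gene and more RNA per cell cannot be told apart, and the part of other cells in these rises was not tested.

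Several members lie side by side in the genome. On chromosome 6, Slc6a13 (121300227 to 121337733, GRCm38) rose, and Slc6a12, 5.3 kb away, was not called. On chromosome 13, Slc6a3 (73536747 to 73578672) rose, while Slc6a18 and Slc6a19 beyond it were too low to test. On chromosome 11, Slc36a2 and Slc36a1 lie 19.3 kb apart and both rose, and Slc36a3 on the other side of Slc36a2 had no count. In all, 11 pairs of neighbouring members were within 500 kb of each other, of which 6 hold a gene that was not tested. Of the other 5 pairs, 1 (Slc36a2 and Slc36a1) had both genes called.

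The promoter windows of members differ in their content of CpG, the dinucleotide that is dense at the promoters Polycomb usually occupies. Over all windows the median was 7 CpG, and 26.5% held 20 or more. Of the 8 genes that rose from under 0.5 CPM, 5 have a window: Slc1a1 (32 CpG), Slc43a1 (26), Slc6a3 (20), Slc6a13 (11 in the richest of its windows) and Slc3a1 (7). Among symbols with no count in any library, Slc7a9 has 6, Slc6a14 has 4, Slc1a3 has 3 and Slc36a3 has 1. Of genes with some counts that were too low to test, Slc6a11 and Slc6a4 hold 32 and 28 and Slc1a2 holds 1. The others hold 19 (Slc6a16), 16 (Slc38a11), 7 (Slc1a7), 5 (Slc38a8) and 4 (Slc6a19). Low genes that were tested and not called include Slc1a6 with 32, Slc7a10 with 24 and Slc7a15 with 9 at most. Well expressed members that did not rise include Slc7a6 with 42 at most, Slc38a2 with 41 and Slc36a4 with 32, but also Slc38a5 with 10 and Slc7a11 with 4. A link of CpG content to the rises was not tested. The 250 bases before the start are shown for 2 genes that rose from no count and 1 that had none in any library, with CpG in capitals, on the plus strand of GRCm38.p6 (RefSeq): Slc1a1 at chr19:28834885-28835134, Slc6a3 at chr13:73536497-73536746 and Slc7a9 at chr7:35448929-35449178.
Slc1a1: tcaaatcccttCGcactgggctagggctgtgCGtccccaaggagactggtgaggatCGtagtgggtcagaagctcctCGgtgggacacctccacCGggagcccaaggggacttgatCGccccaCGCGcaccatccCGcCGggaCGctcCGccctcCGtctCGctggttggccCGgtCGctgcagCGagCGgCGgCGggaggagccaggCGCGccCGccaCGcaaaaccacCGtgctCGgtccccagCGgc
Slc6a3: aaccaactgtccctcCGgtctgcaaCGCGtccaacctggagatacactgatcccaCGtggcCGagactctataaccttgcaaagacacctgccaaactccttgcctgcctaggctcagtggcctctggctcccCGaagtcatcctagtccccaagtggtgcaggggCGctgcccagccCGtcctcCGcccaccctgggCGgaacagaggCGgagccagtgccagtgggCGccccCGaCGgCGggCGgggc
Slc7a9: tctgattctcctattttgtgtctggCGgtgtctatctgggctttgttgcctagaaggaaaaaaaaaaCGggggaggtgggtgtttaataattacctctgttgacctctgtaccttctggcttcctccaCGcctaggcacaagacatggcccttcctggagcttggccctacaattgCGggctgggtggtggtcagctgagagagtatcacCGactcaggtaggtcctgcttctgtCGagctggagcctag
In these stretches Slc1a1 has 27 CpG, spread along its length and closer together towards the start site. Slc6a3 has 16, mostly in the last part, and Slc7a9 has 6.

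Partners of these carriers were taken from a list of 13 genes, of which 12 were tested. Of these 2 (16.7%) rose and 3 (25.0%) fell, beside 16.2% and 7.96% of all tested genes. Most of the 12 are at a mean of 5 CPM or more, where 11.7% of tested genes rose and 10.8% fell. The median log2 fold change of the list was -0.03 beside 0.03 over all tested genes. Tmem27 (collectrin), the chaperone that brings Slc6a19 to the membrane, fell to 4.33 ± 0.361 from 20.2 ± 1.11 CPM, and Slc6a19 was itself too low to test. The kinase genes Sgk2 and Sgk3, which raise transporter activity at the membrane, fell from 33.2 ± 1.97 to 13.4 ± 0.632 CPM and from 127 ± 4.71 to 87.9 ± 14.5 CPM. Sgk1 was at 569 ± 15.3 and 665 ± 34.2 CPM, called higher (adjusted p = 0.0208, edgeR), and its call held only in the fits without DMSO replicate 2 or EPZ011989 replicate 2 among those that left out a library. Without EPZ011989 replicate 2, 4 of the partner genes were called higher. Cd44, whose product holds the Slc7a11 protein at the membrane, had no count in DMSO and was at 0.521 ± 0.242 CPM with EPZ011989. It was therefore tested through its EPZ011989 libraries.

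Among genes that sense amino acids for mTORC1, 7 of 34 tested (20.6%) fell and 27 were not called, beside 7.96% of all tested genes that fell. Most of the 34 are at a mean of 5 CPM or more, where 10.8% of tested genes fell. The median log2 fold change of the list was -0.06. With library size alone 4 fell, and without EPZ011989 replicate 3 there were 3. The falls with the smallest p were Gatsl2 (also named Castor2), a relative of the arginine sensor, from 157 ± 9.48 to 102 ± 4.91 CPM, the leucine sensor Sesn2, with a log2 fold change of -0.58, and the GATOR2 subunits Wdr59 (-0.42) and Seh1l (-0.27). The call on Seh1l was lost in both of those fits (adjusted p = 0.0586 and 0.0503, edgeR).

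The response to amino acid shortage through GCN2 and ATF4 was examined next. Of 27 tested genes 10 (37.0%) fell and 1 (3.7%) rose, beside 7.96% and 16.2% of all tested genes. Most of the 27 are at a mean of 5 CPM or more, where 10.8% of tested genes fell and 11.7% rose. The median log2 fold change of the list was -0.29. Without 1 library, 9 to 13 fell. Atf4 was at 409, 447, 429.7, 447 and 502 CPM in DMSO and at 356, 303, 403 and 408 CPM with EPZ011989 and was not called (-0.28 ± 0.10 SE on the log2 scale, adjusted p = 0.0585 by edgeR). Atf4 was called lower in 7 alternatives: 0.0263 with DESeq2, 0.0476 with limma-voom, 0.0471 and 0.0453 with limma on log2(value + 1) and log2(value + 10), 0.0412 without EPZ011989 replicate 2 and 0.0413 without EPZ011989 replicate 4, and 0.00371 with the length trend removed (adjusted p). The falls with the smallest p were Cth of cysteine synthesis (log2 fold change -0.91), Psat1 (-0.48) and Psph (-0.57) of serine synthesis, and Aldh18a1 (-0.58) of proline synthesis. Atf3, a stress-induced transcription factor, was the rise, from 7.11 ± 1.204 to 10.9 ± 2.29 CPM (adjusted p = 0.0191, edgeR). Its adjusted p was 0.0538 without DMSO replicate 1, 0.0511 without DMSO replicate 3, 0.0579 without DMSO replicate 4, 0.0556 without EPZ011989 replicate 1, 0.0693 without EPZ011989 replicate 3 and 0.0533 without EPZ011989 replicate 4. This list and the enzyme list that follows share Asns and Gpt2.

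Enzymes of glutamine, glutamate and branched-chain amino acids had 5 of 29 tested genes (17.2%) higher and 5 (17.2%) lower, and a median log2 fold change of -0.02. The share higher is near the 16.2% of all tested genes, of which 7.96% were lower. Of tested genes with a mean of 5 CPM or more, 11.7% were higher and 10.8% lower. The higher count was 2 without EPZ011989 replicate 1, 8 without EPZ011989 replicate 2, and 3 without DMSO replicate 1, 3, 4 or 5 or EPZ011989 replicate 4. The lower count was 8 without EPZ011989 replicate 2. Bcat1, the cytosolic branched-chain aminotransferase, fell from 147 ± 3.47 to 102 ± 9.05 CPM, and Dbt, a subunit of the branched-chain ketoacid dehydrogenase, from 19.8 ± 1.42 to 11.8 ± 2.28 CPM. Arg2, mitochondrial arginase, rose from 0.103 ± 0.0872 to 1.67 ± 0.451 CPM, and Ggt7, of the gamma-glutamyltransferase family, from 5.67 ± 1.26 to 11.5 ± 1.74 CPM. Arg2 was tested through its EPZ011989 libraries.

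Carriers beyond the plasma membrane families were set beside them. Of 17 tested carriers of mitochondria and vesicles 2 (11.8%) rose and 3 (17.6%) fell (median log2 fold change 0.01). Over all tested genes 16.2% rose and 7.96% fell, and at a mean of 5 CPM or more 11.7% rose and 10.8% fell. Slc25a12, the mitochondrial aspartate and glutamate carrier, fell from 149.5 ± 4.63 to 113 ± 5.77 CPM, and Sfxn1, which carries serine into mitochondria, from 137 ± 3.93 to 110.0 ± 5.11 CPM. Slc17a7, which loads glutamate into synaptic vesicles, rose from 0.0931 ± 0.103 to 2.15 ± 0.394 CPM, and Slc25a29, a mitochondrial carrier of basic amino acids, from 15.02 ± 1.58 to 21.8 ± 2.66 CPM. Slc17a7 was tested through its EPZ011989 libraries. Among 8 tested amino acid, peptide and related carriers of other families 2 (25.0%) rose and 1 (12.5%) fell (median log2 fold change 0.16). Beside these stand 16.2% and 7.96% of all tested genes. In this list the fall was of Slc16a10, a carrier of aromatic amino acids, from 96.3 ± 6.20 to 70.4 ± 8.64 CPM. The rises were of Slc15a2, a peptide carrier, from 9.50 ± 1.25 to 17.9 ± 5.80 CPM, and of the lysosomal nucleoside carrier Slc29a3, from 9.86 ± 1.37 to 12.7 ± 0.714 CPM (adjusted p = 0.0354, edgeR). The call on Slc29a3 was lost, with adjusted p of 0.112 without DMSO replicate 1, 0.0545 without DMSO replicate 2, 0.0927 without DMSO replicate 3, 0.104 without DMSO replicate 5, 0.129 without EPZ011989 replicate 1, 0.101 without EPZ011989 replicate 3 and 0.0613 without EPZ011989 replicate 4. Without EPZ011989 replicate 4, 2 of these carriers were called lower.

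Of 8 tested genes of the sodium and proton gradients 4 (50.0%) rose and 4 were not called (median log2 fold change 0.37). The share that rose was 16.2% over all tested genes. It was 11.7% at a mean of 5 CPM or more and 26.6% under 5 CPM. The rises in this list included Atp1b3, a subunit of the sodium pump, from 67.2 ± 1.32 to 104 ± 10.2 CPM. Atp1b2, another such subunit, rose from 0.448 ± 0.301 to 3.03 ± 0.922 CPM.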

How the data were processed

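The authors deposited raw gene counts (whole numbers, 33212 rows) and a second, normalized table (signal). All of its deposited values were, library by library, the count divided by 1 factor per library, within 0.01 of a count. HISAT2, StringTie, DESeq2 and mm10 appear in the submitters' processing notes, with neither roles nor versions. Annotation and strand use are not given in the sources used here. Among low deposited counts 1 was the most frequent (3970 values), and 4 and 5 (3046 and 2732) were more frequent than 2 or 3 (2108 and 2160). What a fragment adds to a count is not settled by this. The floor was set at 12 counts, which is 3 fragments if each adds about 4, and covers counting error only.

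Genes were filtered with filterByExpr (about 0.139 CPM in 4 libraries), TMM-scaled and tested with the quasi-likelihood test of edgeR 4.0.16 (robust, treatment as the only term, all 9 libraries, two-sided) in R 4.3.3, with Benjamini-Hochberg adjustment over 14754 genes. SE is the log2 fold change over the square root of F. Alternatives were upper-quartile, RLE or no factors, no filter or one of 1 CPM in 4 libraries, DESeq2 1.42.0, limma 3.58.1 (voom on counts, or the normalized signal as log2(value + 1) and log2(value + 10)), a glmTreat threshold of 1.5-fold, counts divided by 4, the replicate number as a block, and libraries left out. Removal of a length trend was added after seeing the data. Exon lengths, positions and overlaps come from GENCODE M21 (GRCm38, the assembly of mm10). In a simulation of 14754 genes, 50 were changed by each fold, all among genes at 1 CPM or more in DMSO. The fit recovered 54% and 48% of genes raised or lowered 1.5-fold and 82% and 86% at 2-fold, with 8 false calls. The simulated libraries were drawn independently and without a length trend. These shares therefore do not cover members under 1 CPM or the differences between libraries seen here.

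Members and lists were chosen with earlier results of these data known. By rule, per-library values are given for called members, the 5 highest per kb and genes on which a result turns, and up to 4 called genes by smallest p for each list. Sgk1, Atf3, Rbfox3, Ptprc and the genes of glycine, cationic and taurine transport that were not called were described for their roles after their values were seen. Every pair of replicates differed by more than sampling noise (chi-square over its degrees of freedom at least 4.19). A few genes, among them 1 member, are counted in the totals but not reported here.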

Additional observations from a re-analysis of the deposited data

Results flagged for a closer look

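In 6 of 82 groups of libraries (a tested member in DMSO or in EPZ011989), 1 library stood apart from the rest by more than Dixon's 95% critical value, where chance gives about 1 in 20. Slc1a5 was at 120.0 CPM in DMSO replicate 5 beside 101 to 106 CPM in the other DMSO libraries, which is away from the EPZ011989 values. Slc7a3 was at 7.80 CPM in the same library beside 5.91 to 6.41 CPM. Of the low genes, Slc1a6 was at 0.250 CPM and Slc38a3 at 0.177 CPM in DMSO replicate 2, and Slc36a2 at 0.263 CPM in DMSO replicate 3, where the other DMSO libraries had at most 0.0554, 0 and 0 CPM. Slc38a3 was at 1.19 CPM in EPZ011989 replicate 4 beside 0.633 to 0.661 CPM in the other 3.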

How the results depend on the processing

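The member calls of 11 higher and 8 lower were 11 and 8 with RLE and with upper-quartile factors, 11 and 7 with library size alone, 12 and 8 with DESeq2 and 12 and 8 with limma-voom. With at least 1 CPM in 4 libraries 7 were higher, since fewer low genes were tested. With glmTreat against a fold of 1.5, 6 were higher and 0 lower (1 lower at an unadjusted p under 0.05). Without 1 library the counts ran from 8 to 11 higher and from 7 to 12 lower. Of the 19 calls, 10 passed in every alternative that tested them except glmTreat, among them Slc1a1, Slc1a5, Slc6a3, Slc6a8, Slc6a9, Slc6a13, Slc36a1, Slc38a1 and Slc38a9. No member called with all 9 libraries changed direction in any of the 23 alternatives. Slc6a15, called lower without EPZ011989 replicate 2, was of the other sign without replicate 4. In 31 of 941 comparisons, and in some for the markers Gcg and Pcsk2, a gene that passed in neither fit had a log2 fold change of the other sign. With the replicate block, the log2 value was -0.00226 for Slc6a5 and -0.00026 for Slc7a15. Without EPZ011989 replicates 2 and 4, the log2 value was -0.0352 for Slc6a5, 0.000851 for Slc38a2 and 0.0327 for Slc43a2. With limma-voom, the log2 value was -0.0662 for Slc7a10. With limma on log2(value + 1), the log2 value was -0.0235 for Slc7a10. With upper-quartile factors, the log2 value was 0.0179 for Slc7a11, 0.0128 for Slc38a2, 0.0465 for Slc43a2 and 0.00537 for Gcg. With library size alone, the log2 value was 0.00875 for Slc7a11, 0.00897 for Slc38a2 and 0.0407 for Slc43a2. With the length trend removed, the log2 value was 0.0182 for Slc7a11 and 0.02 for Slc43a2. Without 1 library, log2 values crossed 0 with a range of -0.196 to 0.00887 for Slc3a2, -0.174 to 0.235 for Slc6a5, -0.259 to 0.0161 for Slc6a15, -0.0357 to 0.272 for Slc7a2, -0.692 to 0.548 for Slc7a10 and -0.0968 to 0.018 for Slc7a11. The range was -0.0223 to 0.227 for Slc7a14, -0.117 to 0.379 for Slc7a15, -0.116 to 0.0322 for Slc38a2, -0.0201 to 0.041 for Slc38a10, -0.0606 to 0.0335 for Slc43a2, -0.127 to 0.025 for Gcg and -0.0319 to 0.0776 for Pcsk2.

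Over all genes, 2388 were higher and 1174 lower. The counts were 1075 and 31 with glmTreat, and 776 were lower with upper-quartile factors. Without 1 library they ran from 1861 to 2939 higher and from 781 to 2377 lower. The other lists together had 16 genes higher and 28 lower, or 5 and 2 with glmTreat, and from 9 to 24 higher and 24 to 38 lower without 1 library (10 higher without DMSO replicate 1 and 9 without EPZ011989 replicate 1). With the replicate number as a block, 7 members were higher and 5 lower, and 1550 and 471 genes overall. Deviations of same-numbered libraries correlated at -0.0985 to 0.0302, and 1 of 4 EPZ011989 libraries correlated best with its own number, so the numbers do not pair the libraries. Causes of these shifts, where none is named, were not tested. Depth limits statements on members under about 0.158 to 0.203 CPM, the floor per library.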
